A study of Mus musculus with 4 samples.

Results

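The genes encoding the surface proteins used to sort hematopoietic stem cells (HSCs) and leukemia stem cells (LSCs) were examined for binding of Sub1, a DNA-binding transcription cofactor. Sub1 peaks came from CUT&Tag, in which an antibody directs a transposase to cut and tag the DNA near its target. The 7 genes were Ly6a (Sca-1), Kit (c-Kit), Slamf1 (CD150), Cd48, Cd34, Fcgr3 (CD16) and Fcgr2b (CD32), out of 21887 protein-coding genes of the RefSeq annotation of mm10. They were listed from the sorting scheme, and a peak was assigned to a gene when it overlapped the gene record extended by 50 kb on each side. By this rule 122 of 115881 peaks in HSC 1, 178 of 235680 in HSC 2, 49 of 41097 in LSC 1 and 42 of 34185 in LSC 2 belonged to the 7 genes, with a peak shared by neighbouring windows counted once.

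The 4 bone marrow libraries were 2 of HSCs and 2 of LSCs. HSCs were the CD48-CD150+LSK fraction of Nup214fl/+ mice (LSK, lineage-negative, Sca-1-positive and c-Kit-positive). LSCs were sorted as Lin-Sca-1-c-Kit+ cells that were also CD34+ and CD16/32+, and came from mice of the same Nup214fl/+ genotype whose disease was driven by MLL-AF9, a leukemia fusion protein. All 4 samples therefore carried 1 floxed Nup214 allele, and the labels name neither a Cre nor the way MLL-AF9 was introduced, nor age. The cell type field reads hematopoietic stem cell for all 4 samples, so that the groups rest on the sort and the disease model. A number of cells, 2000 to 5000, is given for HSCs alone, and libraries were amplified for 17 to 20 PCR cycles. Whether replicate libraries are from different mice is not given, so their spread may be technical only. The deposited peak names begin with H4-Cut, an unexplained prefix.

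Sca-1 is a GPI-anchored protein of the Ly6 family that marks mouse stem and progenitor cells. c-Kit is the receptor tyrosine kinase for stem cell factor, and CD34 is a sialomucin of progenitor and endothelial cells. CD150 and CD48 are immune receptors of the SLAM family; in mouse marrow the first marks HSCs and the second marks the progenitors that follow them. CD16 and CD32 are low-affinity receptors for IgG, abundant on granulocyte and macrophage progenitors and their offspring, and CD32 carries an inhibitory motif. The sort thus used presence of Sca-1 and CD150 and absence of CD48 for HSCs, and presence of CD16/32 and CD34 with absence of Sca-1 for LSCs, while c-Kit was present on both. A Sub1 peak measures binding at the DNA and not the surface protein.

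In Kit and Cd34 the LSC start peaks were wider than any HSC start peak listed. Fcgr2b had start peaks in every library, and Slamf1 was almost without one. Promoter sequences are shown for these 4 genes, whose gene-start peaks set the members apart. Each is the 250 bases before the start of transcription in RefSeq (GRCm38.p6), 5′ to 3′ on the strand of the gene, and 6 of the 7 members matched an entry of that promoter table. Capitals mark matches, on either strand, to 1 of 5 short motifs. Those of blood transcription factor families were GGAAGT for the ETS family, TGTGGT for the RUNX family and GATAAG for the GATA family. Those of general promoters were GGGCGG, known as the GC box, and TATAAA, known as the TATA box. No motif searched overlapped another in the stretches shown.
Kit: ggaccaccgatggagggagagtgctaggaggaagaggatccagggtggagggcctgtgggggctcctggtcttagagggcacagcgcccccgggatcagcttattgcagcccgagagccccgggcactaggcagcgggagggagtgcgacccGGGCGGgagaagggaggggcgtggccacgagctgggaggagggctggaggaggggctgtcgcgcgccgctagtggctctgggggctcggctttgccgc
Cd34: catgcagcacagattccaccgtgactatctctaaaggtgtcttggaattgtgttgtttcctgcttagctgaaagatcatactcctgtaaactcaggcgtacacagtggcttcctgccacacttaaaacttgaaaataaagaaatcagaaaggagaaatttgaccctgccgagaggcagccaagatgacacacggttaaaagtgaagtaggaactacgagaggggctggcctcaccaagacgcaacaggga
Fcgr2b: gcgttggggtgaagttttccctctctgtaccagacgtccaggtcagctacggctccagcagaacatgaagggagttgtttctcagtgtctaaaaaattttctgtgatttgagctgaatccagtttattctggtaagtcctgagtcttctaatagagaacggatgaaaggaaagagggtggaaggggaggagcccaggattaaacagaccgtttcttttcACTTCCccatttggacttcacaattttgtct
Slamf1: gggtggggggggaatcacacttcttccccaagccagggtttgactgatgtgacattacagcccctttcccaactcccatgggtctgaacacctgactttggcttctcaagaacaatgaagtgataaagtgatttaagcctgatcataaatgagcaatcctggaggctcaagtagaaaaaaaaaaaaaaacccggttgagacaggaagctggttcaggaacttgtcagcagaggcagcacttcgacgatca
The Kit stretch lies at chr5:75574737-75574986 on the plus strand, Cd34 at chr1:194938571-194938820 on the plus strand, Fcgr2b at chr1:170976072-170976321 on the minus strand and Slamf1 at chr1:171766882-171767131 on the plus strand.

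The Kit stretch held a GC box 98 bases before the start, a motif present in 32.7% of 32851 promoter stretches of the same length. In Fcgr2b the reverse complement of the ETS motif, ACTTCC, lay 31 bases before the start, and 19.7% of promoters held that motif on some strand. The Cd34 and Slamf1 stretches held none of the 5, of which RUNX occurred in 14.0%, GATA in 6.55% and the TATA box in 12.4% of promoters. Outside the stretches shown, Cd48 had a RUNX match 76 bases before its start. These matches describe the letters alone. By CpG content, given as observed over expected CpG, the members ran from 0.60 in Kit through 0.446 in Cd34, 0.399 in Fcgr2b, 0.303 in Cd48 and 0.304 and 0.237 at the curated starts of Fcgr3 to 0.216 in Slamf1. Over all promoters with a ratio under 0.5, a value chosen after the ratios were seen, a gene-start peak was present in all 4 libraries for 20.2% of 10166 starts, against 75.3% of 11071 starts at or over it. Cd48, Fcgr2b and Fcgr3 were thus among the CpG-poor starts with peaks in every library, and Slamf1 was a CpG-poor start with a peak in HSC 2 alone.

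The libraries differed in depth and in the length of their lists. Read totals were not given, and the caller's constant background, solved from each list, served as the depth: 3.07 stacked fragments in HSC 1, 7.47 in HSC 2, 4.54 in LSC 1 and 4.50 in LSC 2. The lowest summit listed was 15, 24, 19 and 19 stacked fragments in that order, which is kept for all lists of 4 values that follow. Fold is the authors' value, the height of a summit plus 1 over that background plus 1, and it ranks peaks within 1 library. Because lists differed up to several times in length, lists cut to the 34185, 17092 and 8546 peaks of lowest p in each library were also used. With 2 libraries against 2, the exact permutation test has 6 assignments, and 0.33 is the smallest two-sided p it can give, so no difference between the groups could pass 0.05.

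A gene start was called occupied when a peak overlapped the 5′ end of the gene record or the 1 kb on either side. Of the 7 members 5, 7, 5 and 5 had a gene-start peak, against 54.8%, 62.8%, 52.6% and 50.2% of all protein-coding genes. The LSC mean of 5 ± 0 (SD, n = 2) was lower by 1 gene than the HSC mean of 6 ± 1.41 (SD, n = 2), with p = 1 by the exact permutation test, two-sided. Kit, Cd48, Fcgr3 and Fcgr2b were occupied in all 4 libraries, as were 46.8% of all genes. Ly6a was occupied in both HSC libraries and in neither LSC library, a pattern of 3.04% of genes. No member showed the reverse, which held for 0.48% of genes.

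**Figure D1:**
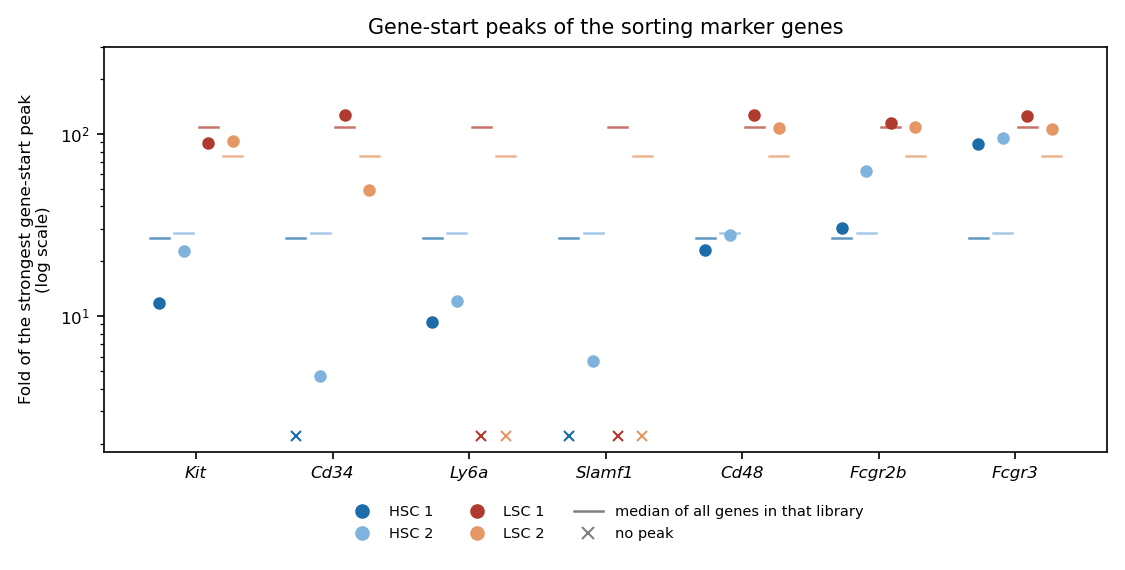
Authors' fold (log scale) of the strongest gene-start peak of each sorting marker gene in each of the 4 libraries. Short lines give the median over all genes with a gene-start peak in that library, crosses stand for no peak, Fcgr3 lies above the line in all 4 libraries, and the HSC peaks of Kit and Cd34 lie under it.

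Kit, the receptor gene that both sorts selected for, had a gene-start peak in every library, and the peak was wide in LSCs and narrow in HSCs. The gene record runs over chr5:75574987-75656722 on the plus strand. The strongest start peak reached a fold of 11.8 in HSC 1, 22.7 in HSC 2, 88.7 in LSC 1 and 91.2 in LSC 2, with summits of 47, 191, 491 and 501 stacked fragments. Among all start peaks of its own library the peak stood at the 20.6th, 42.2nd, 40.0th and 59.8th percentile, so in 3 of the 4 libraries it was under the median. It was 684 and 915 bp wide in HSCs and 3792 and 3490 bp wide in LSCs, where the median start peak measured 1794, 1857, 2463 and 2861 bp. The 2 HSC peaks began inside the promoter stretch shown, at chr5:75574930 and 75574853, and the 2 LSC peaks began upstream of it, at 75574357 and 75574347. Summits lay 278, 445, 632 and 185 bp into the gene. Within 2 kb of the start, peaks covered 1251 and 915 bp in HSCs and 2631 and 2641 bp in LSCs. More cover in both LSC libraries than in either HSC library was found at 12.5% of 17492 genes with a stranded entry, and Kit and Cd34 were the members among them.

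The rest of the Kit window was nearly empty in LSCs. Inside the gene, apart from the start, 1, 9, 0 and 0 peaks were listed, the strongest with folds of 5.40 in HSC 1 and 8.15 in HSC 2. The flanks held 5, 4, 1 and 0 peaks, and the single LSC flank peak lay 116193 bp past the start with a fold of 8.66. In lists of 34185 peaks Kit remained occupied in every library; in lists of 17092 the HSC 1 peak was lost, and in lists of 8546 both HSC peaks were lost and both LSC peaks were kept. That last pattern held for 2.13% of genes, and the reverse for 0.845% and for no member. Of the other class III receptor kinases, Flt3, Csf1r and Pdgfrb had start peaks in all 4 libraries, and Pdgfra and the Kit ligand gene Kitl in none. Flt3, a receptor of early progenitors, had folds of 7.12, 6.61, 61.5 and 33.8, and like Pdgfrb it was occupied in both LSC libraries alone once lists held 34185 peaks. Csf1r, the receptor of macrophage growth factor, had 35.1, 53.0, 48.7 and 52.9.

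Cd34, selected for in LSCs and not used in the HSC sort, had a start peak in both LSC libraries, a weak one in HSC 2 and none in HSC 1. The gene lies at chr1:194938821-194961292 on the plus strand. The LSC peaks had folds of 127 and 49.1, summits of 701 and 269 stacked fragments and widths of 2863 and 1936 bp. They stood at the 58.6th and 31.7th percentile of start peaks, over the median in LSC 1 and under it in LSC 2. The HSC 2 peak had a fold of 4.72, a summit of 39 stacked fragments and a width of 797 bp, at the 7.98th percentile, which puts it near the bottom of that library's start peaks. The 3 peaks covered the whole promoter stretch shown, and their summits lay 351, 142 and 196 bp into the gene. HSC 1, the shallowest library, had its nearest peak 15.7 kb from the start. In lists of 34185 peaks Cd34 was occupied in the LSC libraries alone, a pattern of 2.81% of genes, and it kept that pattern in lists of 17092 (3.51% of genes) and 8546 (2.13%).

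The strongest flank peak of Cd34 was present in all 4 libraries. It lay at chr1:194976321-194978210, over the long non-coding RNA gene Gm16897, with summits 37767 to 38117 bp past the start. Its folds were 24.1, 21.5, 62.9 and 28.9. In HSC 1, where the start had no peak, this was the strongest peak of the whole window, and in HSC 2 it was stronger than the start peak. Inside the gene 1, 4, 3 and 0 peaks were listed. A region at chr1:194954381-194955022, inside Cd34, was found in both HSC libraries alone, with folds of 5.16 and 9.21. Of the related sialomucin genes, Podxl2 was occupied in both HSC libraries alone, with folds of 6.39 and 4.96, and Podxl in HSC 2 alone; in lists of 34185 peaks neither was occupied in any library.

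Ly6a, selected for in HSCs and against in LSCs, had peaks at its ends in both HSC libraries and none in the LSC libraries. The record spans chr15:74994877-74998031. Its strand is given in no table used here, so both annotated ends served as its start, which gives it 2 chances to be counted. Each HSC library listed 4 peaks there, the strongest with folds of 9.33 in HSC 1 and 12.2 in HSC 2 and summits of 37 and 102 stacked fragments. These were weak for a start peak, at the 14.9th and 26.2nd percentile of their libraries. They ranked 32376 and 33174, close to the end of the lists of 34185 peaks, in which the HSC-only pattern held for Ly6a and 0.439% of genes; in lists of 17092, where 0.375% of genes had that pattern, no library kept a Ly6a peak. The nearest LSC peaks were 4.87 and 4.45 kb from an end of the gene. Ly6a sits among close copies of the Ly6 family, and the handling of reads that map to several places is not stated in the sources used here, so the height of these peaks is uncertain.

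Around Ly6a 5 regions were shared by all libraries, none of them at its ends. The start of Ly6e, a Ly6 family gene expressed in many cell types, carried a region at chr15:74953893-74961602 with folds of 56.5, 104, 232 and 181, the strongest peak of the window in every library. A region over the pseudogene Gm8000, chr15:74987801-74990477, had folds of 26.3, 43.8, 18.2 and 23.8. A region inside Ly6c1, chr15:75046698-75047493, was also found in all 4. The other shared regions were chr15:74949979-74953744, over no gene record, and chr15:75020448-75022682, inside Gm28068, a record that also spans Ly6a. The whole window held 32, 32, 7 and 8 peaks, and of its 38 merged regions 12 were found in both HSC libraries alone (7.79% of regions over the genome), among them the 4 at the ends of Ly6a and 2 at Ly6i. Of 18 Ly6 family genes, 9, 13, 8 and 4 had a start peak (all genes 54.8%, 62.8%, 52.6% and 50.2%), and 5, 4, 7 and 4 in lists of 34185 peaks (46.7%, 46.4%, 51.8% and 50.2%). Ly6c2 and Ly6e had one in all 4 libraries, and besides Ly6a the genes Ly6g, Lypd2, Psca and Gpihbp1 had one in both HSC libraries alone. Ly6a kept that pattern in lists of 34185 peaks, and Ly6k and Lynx1 had the opposite one. Ly6g, at ranks 15586 in HSC 1 and 33951 in HSC 2, was left out of the HSC 2 list only because its value was tied with that of other peaks at the end of the list.

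**Figure D2:**
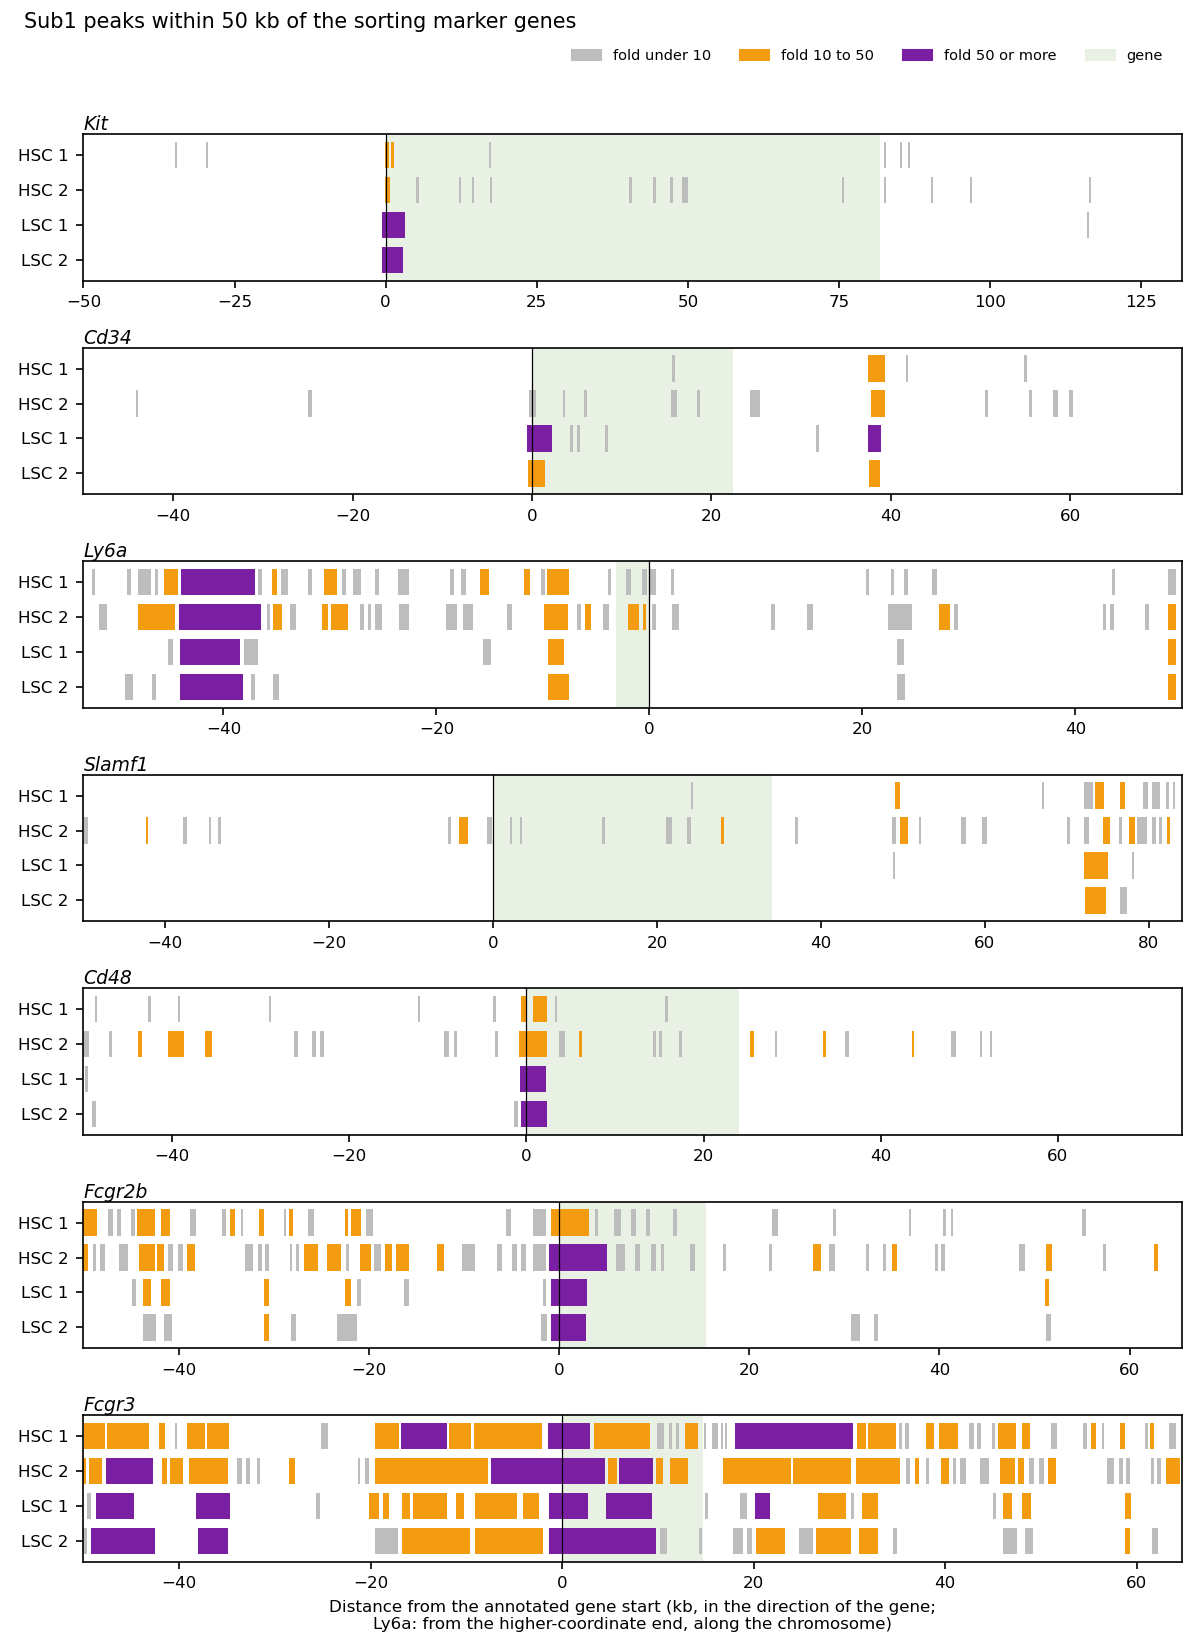
Peaks of the 4 libraries along each gene (shaded) and 50 kb on each side, coloured by the authors' fold, with distance from the annotated start in kb on the horizontal axis. The Kit window in LSCs shows 1 wide start peak and almost nothing else, Ly6a has no LSC peak at either end, and the Fcgr3 window is crowded in every library.

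Slamf1, which encodes the CD150 that defined the HSC gate, had almost no Sub1 peak at its start. The record runs over chr1:171767131-171801184 on the plus strand. Its only start peak was in HSC 2, with a fold of 5.67, a summit of 47 stacked fragments and a width of 561 bp, and its summit lay at -634 bp relative to the start. That peak ranked 120664 and was absent from the list of 34185 peaks, where 44.7% of all genes had no start peak in any library. In lists of 17092 and 8546 peaks Slamf1 and Ly6a were the members without one in any library, beside 49.6% and 57.6% of genes. The nearest peaks of the other libraries were 24.1 kb away in HSC 1, 48.7 kb in LSC 1 and 72.2 kb in LSC 2. Inside the gene 1, 6, 0 and 0 peaks were listed, the strongest with folds of 4.67 and 10.2. The peak that all libraries shared in this window lay at the start of Cd84, another SLAM gene, at chr1:171839256-171842409, with folds of 12.8, 14.4, 34.8 and 30.5.

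Cd48, whose protein was absent from the HSC gate, had a start peak in every library. The record runs over chr1:171681245-171705258 on the plus strand, and its RefSeq transcript starts at 171681992. Folds were 23.1, 28.0, 127 and 107, summits 93, 236, 703 and 590 stacked fragments and widths 1515, 3113, 2860 and 2914 bp. Against the start peaks of their own library these stood at the 42.0th, 49.1st, 58.8th and 69.3rd percentile, near the middle in HSCs. Summits lay 240, 821, 275 and 269 bp past the transcript start. Cover within 2 kb of the start of the gene record was 1781, 2825, 2678 and 2934 bp, so the HSC and LSC libraries overlapped. The peak was kept in lists of 8546 peaks in all 4 libraries, as were the start peaks of 29.2% of genes. Inside the gene 2, 5, 0 and 0 further peaks were listed, and the flanks held 6, 19, 1 and 1.

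Of 9 SLAM family genes 6, 6, 4 and 4 had a start peak in the deposited lists and 3, 3, 4 and 4 in lists of 34185 peaks, beside the shares of all genes given for the Ly6 family. Cd48, Cd244a, Ly9 and Cd84 had one in all 4 libraries, and Slamf8 in both HSC libraries alone, with folds of 7.12 and 3.78. Cd244a encodes the receptor for CD48, and its folds were 25.8, 38.1, 66.7 and 27.6. Of these 9 genes only Cd48 and Cd244a were occupied in all 4 libraries in lists of 34185 peaks, and Slamf8 was in none.

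Fcgr2b and Fcgr3, whose products the LSC sort selected together as CD16/32, had start peaks over the median of their library in HSCs and LSCs alike. Fcgr2b lies at chr1:170960558-170976071 on the minus strand. Its start peak had folds of 30.5, 62.2, 115 and 109, summits of 123, 526, 636 and 600 stacked fragments and widths of 3960, 6097, 3828 and 3677 bp. Within their libraries these peaks stood at the 57.1st, 83.7th, 52.5th and 70.3rd percentile, over the median in each. They covered the whole promoter stretch shown, with summits 228, 188, 215 and 373 bp into the gene. Cover within 2 kb of the start was 3525 and 3612 bp in HSCs and 3231 and 3405 bp in LSCs. Fcgr2b and Fcgr3 were the members covered more in both HSC libraries than in either LSC library, a pattern of 13.4% of 17492 genes. Ly6a, without a stranded entry, was not among the genes counted. Inside Fcgr2b 5, 5, 0 and 0 peaks were listed, and 2 regions, chr1:170967506-170968454 and chr1:170969103-170970243, were found in both HSC libraries alone.

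The Fcgr3 record runs over chr1:171051169-171065915 on the minus strand, while its curated transcripts start at 171059394 and 171059403. The strongest peak that overlapped the start of the record had folds of 88.4, 95.4, 125 and 106, at the 99.3rd, 96.2nd, 58.0th and 68.4th percentile. In HSC 1 it ranked 110 of 115881 peaks and in HSC 2 439 of 235680, the highest of any member. Its summit lay 1911, 1298 and 1379 bp into the record in HSC 1, HSC 2 and LSC 1. At the curated starts the strongest peaks had folds of 39.3, 71.5, 123 and 106, with summits 467, 577, 194 and 566 bp into the gene. In LSC 2 a single peak of 11101 bp spanned both places, with its summit 7087 bp into the record. The fold of 106 is thus its height near the curated starts, and its height at the start of the record is not known. All 5 Fc gamma receptor genes listed, the other members being Fcgr1, Fcgr4 and the shared signalling chain Fcer1g, had a start peak in every library, deposited lists and lists of 34185 peaks alike. Of all genes 46.8% and 42.6% did so in the deposited lists and in lists of 34185 peaks.

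Much of the signal at the end of the Fcgr3 record lay over transfer RNA genes, a feature looked at after the values were seen. The window holds 25 tRNA genes, 3 of them inside the record, and 23, 25, 25 and 25 of them were under a peak. Over all 408 tRNA genes of the annotation the shares were 52.0%, 57.4%, 53.7% and 54.4%. Peaks touching a tRNA gene made up 6, 7, 9 and 8 of the peaks in the window but 49.6%, 66.9%, 65.4% and 80.1% of the bases under a peak. Of the 5 strongest peaks of the window, 4, 4, 4 and 5 touched one. In LSC 2 this count and the share of bases include the 11101 bp peak, whose summit lay near the curated starts and not over a tRNA gene. Several of these tRNA genes are of the same kind by name, and their sequences were not compared. The handling of reads that map to several places is not stated, so which gene a read came from is uncertain. Peaks covered 61.6% and 65.5% of the Fcgr3 window in HSCs and 34.9% and 47.4% in LSCs, higher than any other member in each library.

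**Figure D3:**
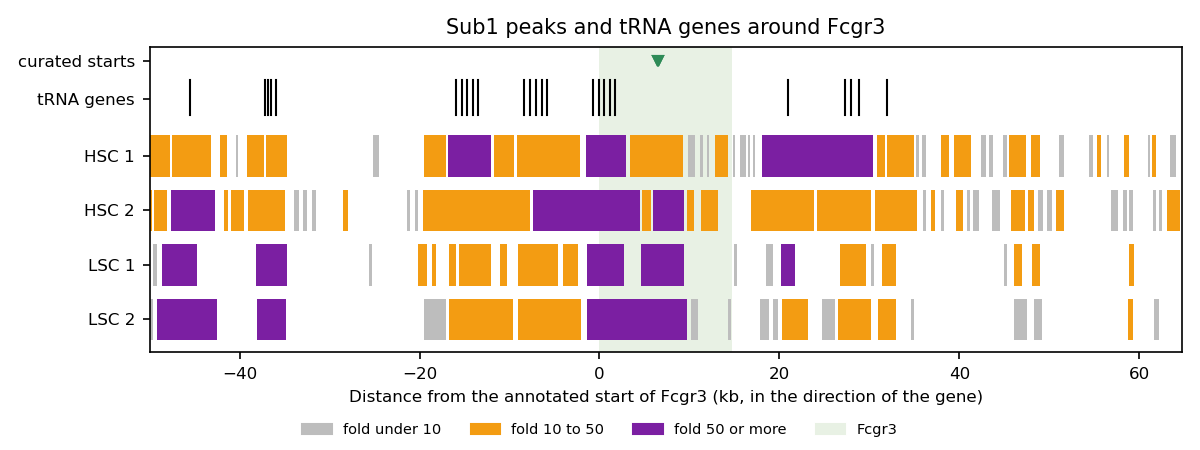
Peaks of the 4 libraries around Fcgr3, coloured by the authors' fold, with the tRNA genes as ticks and the curated transcript starts as a triangle; the horizontal axis is distance in kb from the start of the gene record. The strongest peaks lie over the clusters of tRNA genes and over the curated starts in HSC and LSC libraries.

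Over the 5 merged windows of the 7 genes, HSC libraries listed more peaks and more covered bases, but their lists were longer throughout. The windows held 122, 178, 49 and 42 peaks, a mean of 150 ± 39.6 (SD, n = 2) in HSCs against 45.5 ± 4.95 (SD, n = 2) in LSCs. The LSC over HSC log2 ratio of geometric means was -1.70, or 3.25 times more in HSCs, with no overlap between the groups and p = 0.33 by the exact permutation test. Covered length was 124382, 176026, 73531 and 87774 bp, a log2 ratio of -0.88 (1.84 times more in HSCs, exact permutation p = 0.33), and -0.28 in lists of 34185 peaks (exact permutation p = 0.33). Taken per 10000 peaks of the library, the windows held 10.5, 7.55, 11.9 and 12.3 peaks, higher in LSCs by a log2 ratio of 0.44 (exact permutation p = 0.33). In lists of 34185 peaks the counts were 47, 43, 46 and 42, with overlapping groups, and both the count and the share had a log2 ratio of -0.03 (exact permutation p = 0.67). The share was also -0.08 without the Fcgr2b and Fcgr3 windows, an alternative added after the values were seen.

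**Figure D4:**
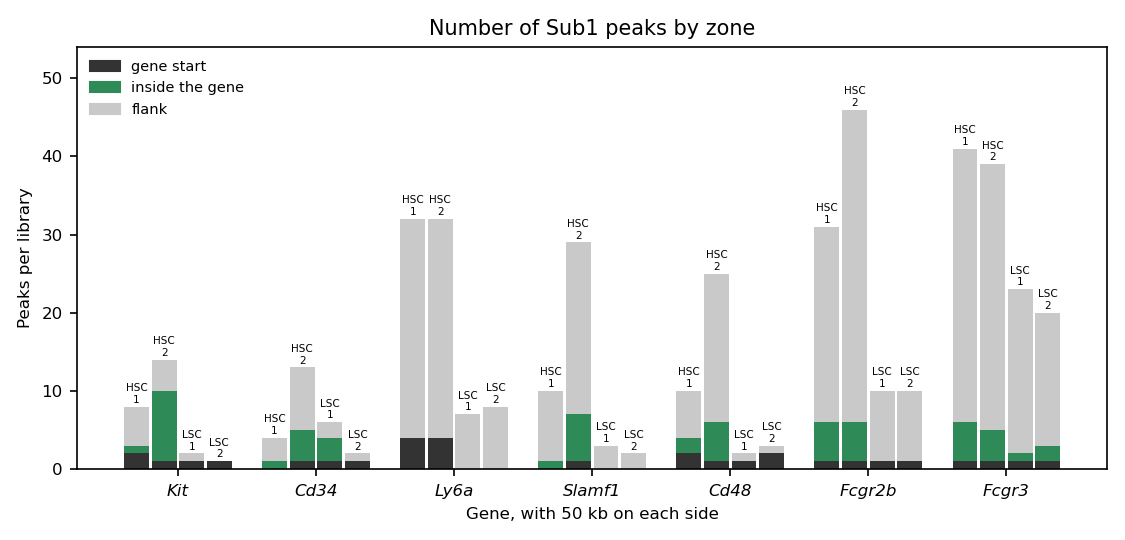
Number of peaks per library at the start, inside and in the 50 kb flanks of each sorting marker gene, as stacked bars from 0. HSC bars are taller than LSC bars for every gene except Cd34, where LSC 1 with 6 peaks exceeded HSC 1 with 4.

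In the deposited lists most of the excess lay away from the gene starts. Inside the genes 15, 33, 4 and 2 peaks were listed, a log2 ratio of -2.59 on counts plus 1 (exact permutation p = 0.33). They numbered 3, 4, 3 and 2 in lists of 34185 peaks, with overlapping groups and a log2 ratio of -0.37 (exact permutation p = 0.67). Merging the peaks of all libraries gave 209 regions in the windows. Of these 20 (9.57%) were found in all 4 libraries, against 5.38% of 285131 regions of the genome. In both HSC libraries alone there were 33 (15.8%, genome 7.79%), in both LSC libraries alone 0 (genome 0.345%), and 132 (63.2%, genome 76.9%) were in 1 HSC library alone. Of the LSC 1 peaks in the windows 75.5% and 83.7% overlapped a peak of HSC 1 and HSC 2 (all LSC 1 peaks, 62.7% and 69.9%). For LSC 2 both shares were 85.7% (all peaks, 74.8% and 79.6%). In the other direction 29.5% and 31.1% of the HSC 1 peaks and 19.7% and 19.7% of the HSC 2 peaks overlapped a peak of LSC 1 and LSC 2. Over all peaks these shares were 25.1% and 27.8% for HSC 1 and 12.7% and 13.2% for HSC 2.

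**Figure D5:**
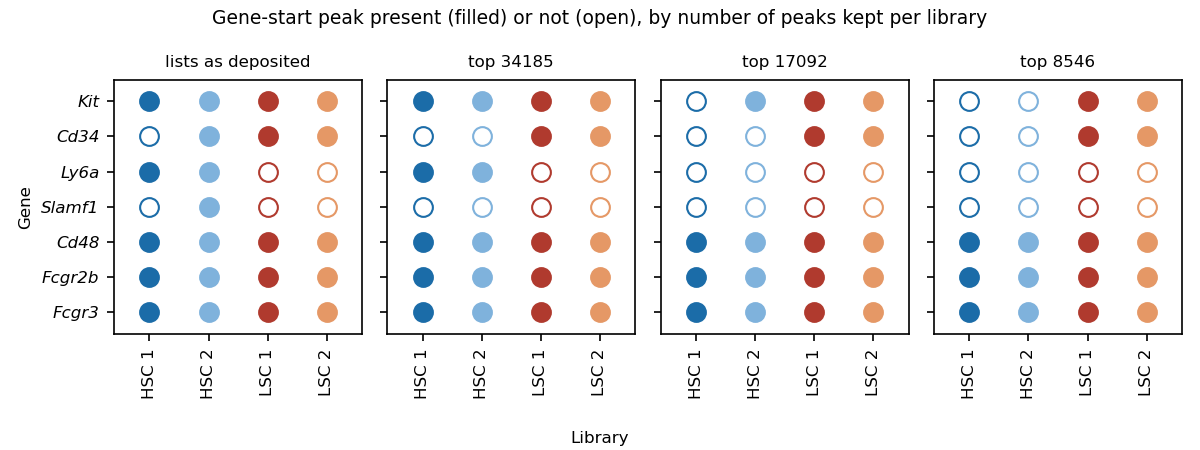
Presence (filled) or absence (open) of a gene-start peak of each sorting marker gene in each library, in the deposited lists and in lists of 34185, 17092 and 8546 peaks. Cd34 is filled in LSCs alone from 34185 peaks on and Kit at 8546, while Cd48, Fcgr2b and Fcgr3 stay filled in every library.

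With lists of equal length, the number of occupied members changed its order. It was 5 in each library at 34185 peaks (all genes 46.7%, 46.4%, 51.8% and 50.2%). At 17092 peaks it was 3, 4, 5 and 5 (42.6%, 41.6%, 48% and 47.3% of genes), a difference of 1.5 genes toward LSCs. At 8546 peaks it was 3, 3, 5 and 5 (35.4%, 34.3%, 38.4% and 38.4%), a difference of 2 genes (exact permutation p = 0.33 for both). From 34185 to 17092 peaks Ly6a was lost in both HSC libraries and Kit in HSC 1, and from 17092 to 8546 Kit was lost in HSC 2. Cd34 was occupied in LSCs alone at all 3 lengths, and the starts of all genes were also occupied more often in LSCs at these lengths.

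Markers of other cells were also present, in numbers that depended on list length. Of all genes 54.8%, 62.8%, 52.6% and 50.2% had a start peak, and 46.7%, 46.4%, 51.8% and 50.2% in lists of 34185 peaks. Of 7 neutrophil genes (S100a8, S100a9, Ltf, Ngp, Camp, Cxcr2 and Mmp9) 7, 7, 7 and 6 had a start peak, with folds of 18.4 to 44.0, 14.0 to 64.1, 5.05 to 30.3 and 6.91 to 51.6. In lists of 34185 peaks 7, 7, 6 and 6 were kept, and in lists of 8546 peaks 6, 6, 0 and 2 (all genes 35.4%, 34.3%, 38.4% and 38.4%). Of 4 B cell genes 2, 3, 0 and 0 and of 4 T cell genes (Cd3e, Cd3d, Lck and Tcf7) 2, 3, 0 and 0 had a start peak. The folds of these T cell genes did not exceed 9.44. In lists of 34185 peaks the counts were 1, 1, 0 and 0 for B cells and 0 in each library for this T cell set. Outside the set, Cd3g and Cd4 had folds of 15.0 and 12.3 in HSC 2, Cd8b1 had 5.67 there and Cd8a no start peak. Cd5 had 10.1 and 15.2 in HSC 1 and HSC 2, and in lists of 34185 peaks it was occupied in the HSC libraries alone. Both Fc receptor genes are also expressed in neutrophils and macrophages. The part of other cells in the HSC-only peaks of Ly6a and in the HSC peaks of Fcgr2b and Fcgr3 was not tested. Fewer cells that carry a peak and less binding per cell cannot be told apart in these bulk samples.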

How the data were processed

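Sub1 CUT&Tag was analysed from the peak lists the authors deposited, 1 for each of 2 HSC and 2 LSC libraries. Per the submitters' processing notes, FastQC 0.11.5, Bowtie2 2.2.9, MACS2 and ChIPseeker were used with mm10. Treatment of duplicate and multi-mapping reads is not stated in the sources used here, and reads or a control library were not analysed here. For every peak the authors deposited a fold (the ratio of summit pileup plus 1 to background plus 1), a -log10 p and a -log10 q value. The deposited score is 10 times -log10 q, rounded down. For 3000 peaks per library, fold and -log10 p gave whole pileups (within 0.05) for 100% with 1 constant background per library. These peaks were drawn from those of lower fold. The strongest peaks, among them the LSC start peaks of Kit, Cd34, Cd48 and Fcgr2b, were outside this check. Their summits were solved with the same background. The value of the background, under 8 stacked fragments throughout, is the depth, and peak heights near the lowest listed summits have the least precision.

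Genes and promoters came from RefSeq (GRCm38.p6). Peaks (overlap of at least 1 bp) were assigned first to the gene start, then to the gene, then to the 50 kb flank. All 7 genes are named, with their start peaks, the strongest peak inside and in the flank, and regions in all 4 libraries or in both of 1 group; selected examples of these are printed. Equal lists were cut by p, with ties in file order. Group values were compared by a two-sided exact permutation test written in Python 3.11.15 with NumPy 2.4.6. SciPy 1.17.1 was used to solve the background, pandas 2.3.3 to handle the lists and matplotlib 3.10.9 to draw the plots. Zone assignment and the pileup solution were tested on simulated data and recovered 100% of 300 genes and 100% of 500 peaks. Alternatives were list lengths, a -log10 q of at least 10, summits alone, other window sizes, left-out libraries and a replicate block; fold of at least 4, transcript starts, and omission of the Fc receptor windows or tRNA peaks were added after seeing the data. Exon, intron and protein annotation was not used here. A few genes of the related lists are not reported here by name. The members and lists were chosen with earlier results of these data known.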

Additional observations from a re-analysis of the deposited data

How the results depend on the processing

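Window counts depended on list length above all. The difference in gene-start members (LSC minus HSC, -1 as deposited) was 0 in lists of 34185 peaks, ordered by p or by fold, 1.5 in lists of 17092 and 2 in lists of 8546; it was 0 without HSC replicate 2 and ranged from -2 to 0 over the left-out libraries. The log2 ratio of peaks per 10000 (0.44) turned to -0.032 in lists of 34185 by p or by fold, -0.48 in lists of 8546 and -0.076 without the Fcgr2b and Fcgr3 windows. With 1 constant background per library, p and fold order the peaks alike, so the order by fold is not a separate check. The log2 ratio of window peaks (-1.70) was 0.060 in lists of 17092. For single genes the ratio was taken on counts plus 1. It turned to 1.09, 0.58 and 0.79 for Cd34 in lists of 34185, 17092 and 8546, and to 0.0094 and 0.072 for Fcgr3 in lists of 34185 and 17092. For Kit it turned to 0.50 and 1 in lists of 17092 and 8546, and for Fcgr2b to 0.24 in lists of 17092. The only Kit window peaks left were start peaks, 0, 1, 1 and 1 in lists of 17092 and 0, 0, 1 and 1 in lists of 8546. The cause of these turns was not tested. Leaving out 1 library gave -1.97 to -1.43 for window peaks, -1.13 to -0.63 for covered length, 0.20 to 0.68 for the share and -3.13 to -2.05 for inside-gene peaks. With a replicate block the ratios were the same (-1.70 for window peaks), and the smallest p it allows is 0.5; same-numbered libraries deviated together with r = 0.27 over 10241 genes, across which genes are not independent, and they share a number only. No value could cross 0.05 in this design. Covered length and inside-gene peaks kept their sign under every alternative run but shrank in lists of 34185 peaks, from -0.88 to -0.28 and from -2.59 to -0.37. In lists of 17092 and 8546 peaks covered length was -0.24 and -0.80, so in the shortest lists it was again near the deposited value. Inside-gene peaks were -0.79 and -0.50 in these lists. Depth limits weak peaks: at the Cd34 start in HSC 1, a summit under the lowest listed height of 15 stacked fragments would not be in the list.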

Other observations

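Of 12 other surface markers of stem cells, 7, 9, 5 and 2 had a gene-start peak (HSC 1 first, LSC 2 last), and 5, 5, 4 and 2 in lists of 34185 peaks. Over all genes the shares were 54.8%, 62.8%, 52.6% and 50.2%, and 46.7%, 46.4%, 51.8% and 50.2% in lists of 34185 peaks. Cd9 and Cd93 had one in all 4 libraries. Cd93, a receptor of early progenitors and endothelium, had folds of 26.8, 67.3, 315 and 231, and it was kept in lists of 8546 peaks in every library. Thy1, Cd27, Cd63 and Prom1 had a start peak in both HSC libraries alone. In lists of 34185 peaks this remained for Cd27 (folds 9.82 and 18.1) and Prom1 (22.8 and 18.9), and in lists of 17092 for Prom1. Tek, the angiopoietin receptor gene, had no start peak in any library.

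Markers commonly used for lineage depletion (the labels do not list the antibodies) were occupied at 8, 12, 5 and 3 of 16 starts, and at 5, 7, 3 and 3 in lists of 34185 peaks. The all-gene shares for these and for the erythroid genes below are those given for the stem cell markers. Ptprc, Itgam and Ly6c2 had a peak in every library, and Ly6c2 was strong in each, with folds of 77.1, 134, 262 and 218. Among those with one in both HSC libraries alone were Cd3d, Cd3g, Ly6g and Cd5, with folds between 4.42 and 15.2, and in lists of 34185 peaks Cd5 kept that pattern. Of 4 erythroid genes 2, 1, 2 and 1 were occupied, and Klf1, an erythroid transcription factor gene, was the one found in all 4 libraries.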
